A study of Sus scrofa with 4 samples.

Results

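The kainate receptor genes GRIK1 to GRIK5 and the transporter genes SLC1A1 to SLC1A5 were read in cells sorted from pig epidermis by the activity of LGR5. These 10 genes, out of 29837 named genes in the counts, were chosen by name, and the choice of the families was prompted by the measured values of GRIK3 and SLC1A4 in the same comparison. The differences of GRIK3 and SLC1A4 between the populations are therefore given as a description without a test. The other 8 genes entered by their family name alone.

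The pigs, 88R and 95R, are labelled juvenile and carried H2B-GFP, a green fluorescent histone, knocked into exon 1 of 1 LGR5 allele. The line came from clonal edited cells by nuclear transfer, and whether these pigs were founders or progeny is not given in the sources used here. Both populations of a pig carried the insertion. Living cells freed from epidermis and hair were sorted, among others, into LGR5-high, with bright GFP, and LGR5-negative, without GFP. The study also sorted cells with low GFP, which are in neither population. For each of these populations and each pig 1 poly(A) library of LGR5-high or LGR5-negative cells was made, 4 in all.

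Kainate receptors are ion channels that open when glutamate binds. They are assembled from 4 subunits, and the products of GRIK1, GRIK2 and GRIK3 can form channels on their own, whereas those of GRIK4 and GRIK5, which bind the ligand tightly, need a partner from the first group. The SLC1 family moves amino acids into or across the cell membrane together with sodium. SLC1A1, SLC1A2 and SLC1A3 encode glutamate and aspartate transporters, which clear glutamate around neurons and glia and supply it to other tissues, and SLC1A4 and SLC1A5 encode exchangers of neutral amino acids such as alanine, serine, cysteine and, for SLC1A5, glutamine.

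Named genes drew 30696803 to 32463362 counts in a library. Levels are given as CPM, counts set relative to the library size after scaling by the trimmed mean of M-values (TMM), and the floor of 3 counts came to 0.0872 to 0.105 CPM. Unless another test is named, p-values come from the quasi-likelihood test of edgeR with Benjamini-Hochberg adjustment over all tested genes, and a gene was called at an adjusted p-value under 0.05. Of 6 outer root sheath and bulge markers 5 were higher in LGR5-high, and of 6 suprabasal keratinocyte markers 5 were lower. Among all tested genes 22.7% were called higher and 22.0% lower. LGR5 itself, counted among the higher markers, had 4551 and 6224 counts against 36 and 109. The cells were sorted by GFP from the LGR5 locus, so this gene only describes the sort. KRT5, the basal keratin, held between 789559 and 842315 counts in every library. CPM was not divided by transcript length, so the levels of different genes were not ranked.

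GRIK3 was close to the limit of detection in LGR5-negative and abundant in LGR5-high. GRIK3 drew 2921 counts in pig 88R and 3547 in pig 95R among LGR5-high cells, against 3 and 7 among LGR5-negative cells. The populations did not overlap, and the 3 counts of pig 88R stood at the floor. The mean level of LGR5-high was 96.1 ± 15.8 CPM (SD, n = 2) and that of LGR5-negative was 0.168 ± 0.0893 CPM. Within pig 88R the ratio of the populations was 807-fold, with a 95% counting interval from 276 to 3918, and within pig 95R it was 463-fold, with an interval from 225 to 1154. The intervals are exact binomial ones and cover counting error only. The log2 fold change fitted by edgeR was 9.11, which was the 7th largest among 15980 tested genes, and it was 8.67 without the LGR5-negative library of pig 88R and 9.77 without that of pig 95R. GRIK3 passed the filter on low counts through the LGR5-high libraries alone. In bulk libraries, fewer cells that express a gene and less RNA per cell cannot be told apart.

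GRIK1, which like GRIK3 encodes a subunit able to form a channel by itself, was also higher in LGR5-high. It drew 253 counts in pig 88R and 315 in pig 95R among LGR5-high cells, against 14 and 39 among LGR5-negative cells. Every LGR5-high library was above both LGR5-negative libraries, and within LGR5-negative the pigs stood apart. The level was 8.44 ± 1.54 CPM (SD, n = 2) against 0.890 ± 0.565 CPM. LGR5-high exceeded LGR5-negative by a log2 fold change of 3.23 (standard error 0.440, 95% interval 2.14 to 4.32, edgeR adjusted p = 0.00262). Pig 88R alone gave 3.74 and pig 95R 2.83. It was 2.70 without the LGR5-negative library of pig 88R and 4.08 without that of pig 95R. A linear model fitted to each gene alone on log2(CPM + 1) did not call GRIK1.

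GRIK2, the remaining subunit of this kind, was at the limit of detection. It had 1 count in the LGR5-high library of pig 88R and 0 counts in the other 3 libraries, which allows a level of up to 0.0908 to 0.105 CPM for a library with no count. It did not pass the filter on low counts, and no fold change is given.

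GRIK4 and GRIK5, the high-affinity subunits, were present in both populations without the contrast seen in GRIK1. GRIK4 held 656 counts in pig 88R and 897 in pig 95R for LGR5-high, against 615 and 562 for LGR5-negative. The populations overlapped, and the pigs went in opposite directions. In pig 88R the ratio of LGR5-high over LGR5-negative was 0.885, with a counting interval from 0.791 to 0.989, and in pig 95R it was 1.46, with an interval from 1.31 to 1.63. Over both pigs the log2 fold change was 0.20 (standard error 0.195, unadjusted 95% interval -0.28 to 0.68, edgeR adjusted p = 0.434). No difference was called with 2 pigs, and values within that interval stay compatible with the data.

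GRIK5 held 76 counts in pig 88R and 73 in pig 95R for LGR5-high, against 114 and 102 for LGR5-negative. Both LGR5-high libraries lay below both LGR5-negative libraries. The level was 2.21 ± 7.24e-04 CPM (SD, n = 2) for LGR5-high against 3.69 ± 0.442 CPM for LGR5-negative. The log2 fold change was -0.74 (standard error 0.240, unadjusted 95% interval -1.33 to -0.14), and the edgeR adjusted p-value was 0.0512, just above the threshold of 0.05. Under a fit that had the pig as a replicate block, the edgeR adjusted p-value was 0.0218, and GRIK5 was then called lower, as were 27.2% of all tested genes. In RefSeq the span of GRIK5 overlaps ZNF574, whose counts were 1225 and 1185 in LGR5-high and 1913 and 1796 in LGR5-negative (log2 fold change -0.82, edgeR adjusted p = 0.00168). The strand setting of the counting is not given in the sources used here, and the part of ZNF574 reads in the GRIK5 counts was not tested.

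**Figure D1:**
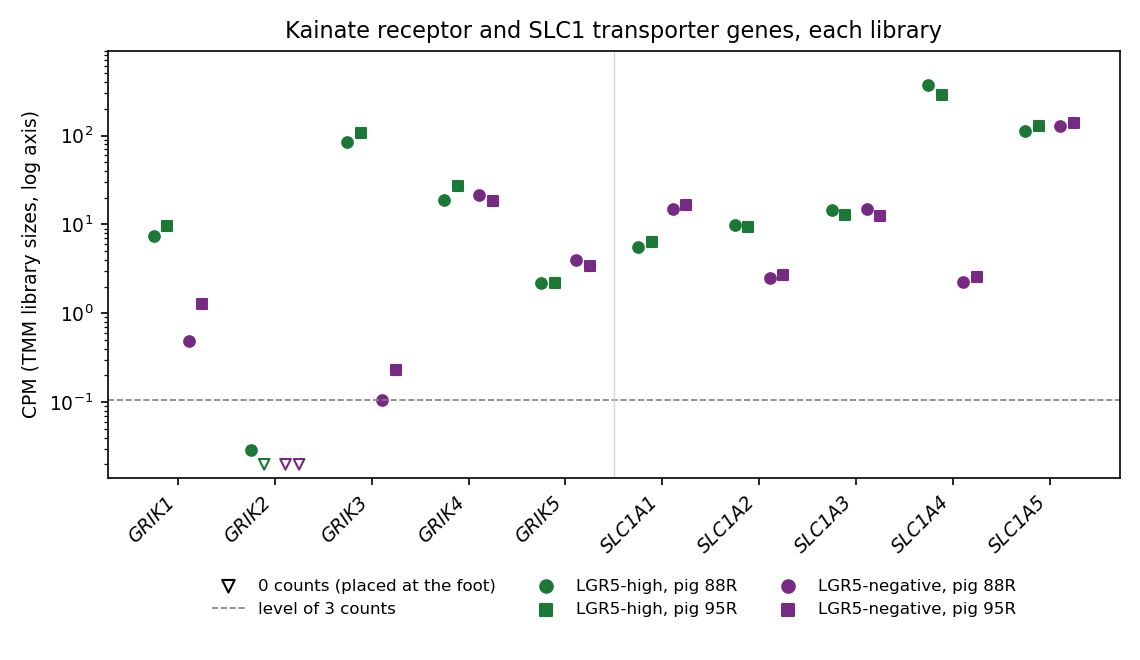
Level of each gene in each library, as CPM on TMM library sizes on a log axis, with LGR5-high in green and LGR5-negative in purple, circles for pig 88R and squares for pig 95R; the dashed line is the highest level of 3 counts, 0.105 CPM, and open triangles mark 0 counts. GRIK3 and SLC1A4 show the widest gaps between the populations, GRIK1 and SLC1A2 are higher and SLC1A1 lower in LGR5-high, and the points of SLC1A3 and GRIK4 overlap.

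Among the transporters, SLC1A4 stood at 12842 counts in pig 88R and 9551 in pig 95R for LGR5-high, against 64 and 77 for LGR5-negative. SLC1A4 encodes ASCT1, the exchanger of alanine, serine and cysteine. The populations did not overlap in either pig. The level was 331 ± 59.7 CPM (SD, n = 2) for LGR5-high against 2.40 ± 0.214 CPM for LGR5-negative. The ratio was 166-fold in pig 88R (counting interval 130 to 216) and 113-fold in pig 95R (90.7 to 144). The fitted log2 fold change of 7.11 was the 57th largest of all tested genes. Unlike GRIK3, SLC1A4 was above the floor in every library.

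SLC1A5 encodes ASCT2, the other neutral amino acid exchanger and a glutamine transporter of many dividing cells, and did not pass the test. It held 3916 counts in pig 88R and 4189 in pig 95R for LGR5-high, against 3648 and 4170 for LGR5-negative. Scaled levels averaged 120 ± 9.11 CPM (SD, n = 2) for LGR5-high against 133 ± 7.05 CPM for LGR5-negative, and the populations stood narrowly apart, with 126.7 CPM in the higher LGR5-high library and 127.9 CPM in the lower LGR5-negative library. The log2 fold change was -0.14 (standard error 0.0911, 95% interval -0.37 to 0.08, edgeR adjusted p = 0.245). Without TMM, on library size only, it was 0.079. That scaling moved the median over the tested genes from 0.02 to 0.24 on the log2 scale, and SLC1A5 moved with it. Relative to this median SLC1A5 was therefore at -0.16 under both scalings by construction, which is no check of its difference.

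The 3 glutamate transporters each behaved differently. SLC1A2 encodes EAAT2, the main glutamate transporter of astrocytes, and was higher in LGR5-high. Its counts were 342 in pig 88R and 312 in pig 95R for LGR5-high, against 72 and 82 for LGR5-negative. The populations were well apart and the pigs close to each other, at 9.69 ± 0.356 CPM (SD, n = 2) and 2.62 ± 0.132 CPM. The fitted log2 fold change was 1.89 (standard error 0.184, 95% interval 1.43 to 2.34, edgeR adjusted p = 8.03e-04). SLC1A2 was called under each of the 14 alternatives that were run, with an adjusted p-value of at most 0.0420.

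SLC1A1 encodes EAAT3, the glutamate and cysteine transporter of neurons and many epithelia, and was lower in LGR5-high. Its counts were 194 in pig 88R and 211 in pig 95R for LGR5-high, against 422 and 495 for LGR5-negative. Both LGR5-high libraries lay below both LGR5-negative libraries, at 6.01 ± 0.526 CPM (SD, n = 2) against 15.6 ± 1.11 CPM. This gave a log2 fold change of -1.37 (standard error 0.155, 95% interval -1.76 to -0.99, edgeR adjusted p = 0.00132), where pig 88R alone gave -1.38 and pig 95R -1.35. The linear model fitted to each gene alone did not call it.

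SLC1A3 encodes EAAT1, known from glia. Its counts were 505 in pig 88R and 425 in pig 95R for LGR5-high, against 425 and 376 for LGR5-negative. After scaling the libraries of the populations overlapped, at 13.8 ± 1.29 CPM (SD, n = 2) and 13.7 ± 1.75 CPM. Its log2 fold change was 0.01 (standard error 0.156, 95% interval -0.38 to 0.40, edgeR adjusted p = 0.959).

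Of the 8 genes that entered by name, 7 passed the filter on low counts. GRIK1 and SLC1A2 were called higher, SLC1A1 was called lower and 4 were not called. Among all 15980 tested genes 22.7% were called higher and 22.0% were called lower, and the 2 higher and 1 lower of 7 are read here as no result about the families. Without TMM, on library size only, the share of higher genes among all called genes moved from 50.9% to 70.2%, and the calls of the 7 genes were the same.

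**Figure D2:**
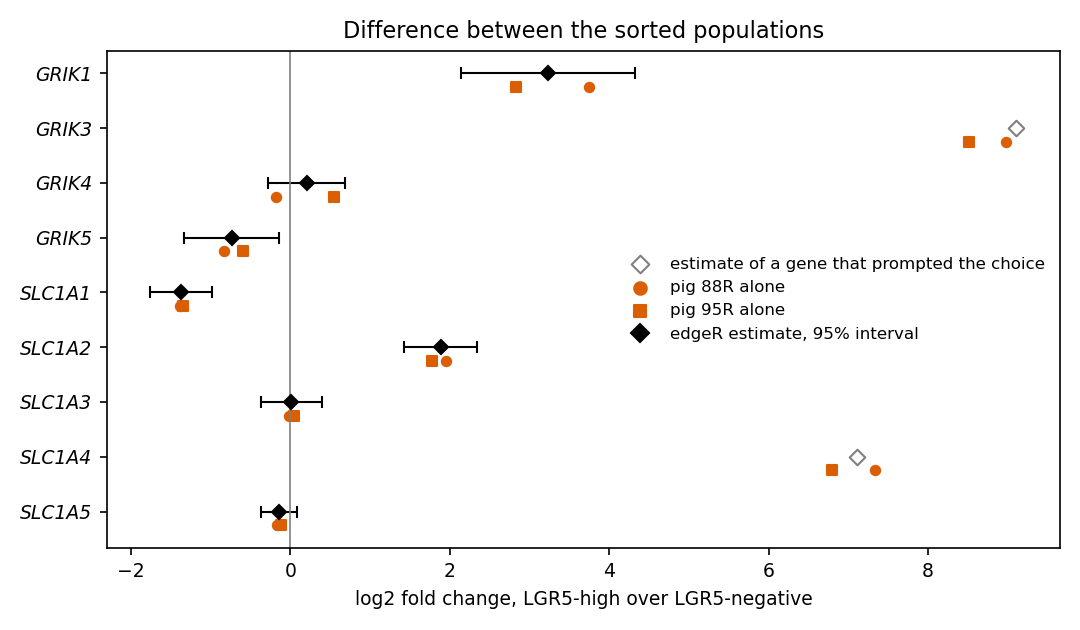
Log2 fold change of LGR5-high over LGR5-negative for the 9 genes that passed the filter, with the edgeR estimate and its unadjusted 95% interval as black diamonds and bars, and the fold change within each pig in orange. GRIK3 and SLC1A4, which prompted the choice, are open diamonds with no interval. The intervals of GRIK4, SLC1A3 and SLC1A5 contain 0, and the orange points of GRIK4 lie on both sides of 0.

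The genes whose levels over the 4 libraries were closest to those of GRIK3 were RTN1, CTNND2 and ISM1, with a Euclidean distance of log2 CPM of 1.68, 1.92 and 1.93. RTN1, a reticulon of the endoplasmic reticulum, had 3056 and 3172 counts in LGR5-high and 4 and 26 in LGR5-negative. For SLC1A4 the closest genes were LOC100525745, LHX2 and GJB6, at distances of 0.845, 1.02 and 1.29. GJB6, a connexin gene of keratinocytes, had 18547 and 17066 counts in LGR5-high and 93 and 49 in LGR5-negative, and LHX2, a transcription factor of hair follicle stem cells, had 11405 and 10444 against 93 and 140. These distances, over 4 libraries, set CPM of different genes side by side without their transcript lengths, so they describe likeness in counts and in contrast together and nothing beyond it.

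The contrast of GRIK3 and SLC1A4 was not shared by the genes next to them in the RefSeq annotation that passed the filter. On 1 side of GRIK3 lies ZC3H12A, a ribonuclease gene, which was lower in LGR5-high, with 1195 and 1032 counts in LGR5-high and 5908 and 5026 in LGR5-negative (log2 fold change -2.50, edgeR adjusted p = 1.30e-04). On the other side, LOC102167570 had 3 to 5 counts in each library, and MIR9842, which overlaps GRIK3, had 1 and 4 counts in LGR5-high and 0 and 0 in LGR5-negative. Both were too low to be tested. Beside SLC1A4, CEP68, a centrosomal gene, had 3240 and 2991 counts in LGR5-high and 2755 and 3039 in LGR5-negative (log2 fold change -0.09, not called), and LOC102160963 had a log2 fold change of 0.32 (edgeR adjusted p = 0.403). Beside SLC1A1, GLIS3, a transcription factor gene, went the opposite way from its neighbour, with 195 and 203 counts in LGR5-high and 16 and 6 in LGR5-negative (log2 fold change 3.96, edgeR adjusted p = 0.00127). In LGR5-negative GLIS3 reached the level of the filter in pig 88R only. LOC110256886, which overlaps SLC1A1, had 11 and 5 counts against 17 and 11 (log2 fold change -1.005, not called).

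Other genes that sense or handle glutamate were read from lists of receptors, auxiliary proteins, transporters and enzymes. Over these lists, 63 of 82 genes passed the filter, of which 24 rose and 13 fell in LGR5-high, beside the 22.7% and 22.0% of all tested genes. On library size only, without TMM, the counts were 31 and 7. Of the genes that passed, 5 did so through the LGR5-high libraries alone and 1 through LGR5-negative alone, and such genes had to differ in order to pass, so the counts only describe the lists. With at least 10 counts required in every library, 18 were higher and 13 lower. The count of lower genes was 8 without the LGR5-high library of pig 88R and 8 without that of pig 95R.

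Among the 13 other ionotropic receptor genes, 6 were higher in LGR5-high, 2 were not called and 5 did not pass the filter. Of all tested genes 22.7% were called higher. Of the higher genes 3, GRIA4, GRIN2A and GRIN2B, passed through the LGR5-high libraries alone and had to differ in order to pass. GRIA3, an AMPA receptor subunit gene, had a log2 fold change of -1.17 and did not pass the test (edgeR adjusted p = 0.0738), and under the replicate block it was called lower. The NMDA receptor subunit gene GRIN2B had 104 and 109 counts in LGR5-high and 2 and 9 in LGR5-negative, with a log2 fold change of 4.06 (standard error 0.539). GRIN2A, another NMDA subunit gene, had 39 and 19 counts against 0 and 1, a ratio of 50.5 with a counting interval from 8.72 to 2030. GRIA4, another AMPA subunit gene, had 15 and 12 counts against 2 and 1, a ratio of 7.84 with an interval from 2.41 to 40.4. GRIN1, the subunit that NMDA receptors require, is named here after its values were seen and had 100 and 150 counts against 32 and 45, with a log2 fold change of 1.51 (standard error 0.338, edgeR adjusted p = 0.0153). All of these counts were low, with at most 150 in a library.

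Of the 8 metabotropic receptor genes, which signal through G proteins, 3 were higher and 1 was lower, and 3 did not pass the filter. The shares over all tested genes were 22.7% and 22.0%. Of the higher genes 2, GRM3 and GRM8, passed through the LGR5-high libraries alone and had to differ in order to pass. GRM4 had 211 and 562 counts in LGR5-high and 2 and 11 in LGR5-negative, with a log2 fold change of 5.69 (standard error 0.779, edgeR adjusted p = 0.00267). In LGR5-negative it reached the level of the filter in pig 95R only. It could therefore pass only with an LGR5-high library, and its call too is a description. The pigs differed widely in both populations of GRM4, although the populations did not overlap. GRM3 had 111 and 53 counts against 7 and 5, with a log2 fold change of 3.54. GRM8 had 18 and 20 counts against 0 and 2, a ratio of 16.6 with a counting interval from 4.28 to 142. GRM2 was the lower gene, with 76 and 76 counts against 114 and 111 and a log2 fold change of -0.77.

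Of 13 auxiliary and scaffold genes 8 passed the filter, of which 2 were higher and 1 was lower, beside the 22.7% and 22.0% of all tested genes. NETO1 and NETO2 encode the auxiliary subunits of kainate receptors. NETO1 had 0 counts in every library. NETO2 had 55 and 58 counts in LGR5-high and 30 and 30 in LGR5-negative, with a log2 fold change of 0.71 that did not pass the test (edgeR adjusted p = 0.0997). CACNG4, a regulatory subunit of AMPA receptors, was higher with a log2 fold change of 2.57, and so was DLG4, the scaffold PSD-95, with 0.87. GRIP1, a scaffold of AMPA receptors, was lower with -0.59.

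Among the 7 other glutamate transporter genes 4 passed the filter, of which 2 were higher and 1 was lower, beside the 22.7% and 22.0% of all tested genes. SLC7A11 and SLC3A2 encode the parts of the cystine and glutamate exchanger, which exports glutamate as it imports cystine. SLC7A11 had 7133 and 4488 counts in LGR5-high and 664 and 824 in LGR5-negative, with a log2 fold change of 2.76 (standard error 0.221, edgeR adjusted p = 4.11e-04), and SLC3A2 had a log2 fold change of 0.75. SLC1A6, a further member of the SLC1 family, was lower with 9 and 3 counts against 47 and 30. It passed the filter through the LGR5-negative libraries alone and had to differ in order to pass. The vesicular transporters were barely read, since SLC17A6 and SLC17A8 had at most 1 count in any library.

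The enzymes of glutamate and glutamine gave 6 higher and 4 lower genes among the 19 of 21 that passed the filter. Over all tested genes the shares were 22.7% and 22.0%. The subunits of glutamate-cysteine ligase, which joins glutamate to cysteine in the first step of glutathione synthesis, were both higher, GCLM with a log2 fold change of 2.35 and GCLC with 1.58. ALDH18A1, which takes glutamate towards proline, was higher with 1.55. GLUL, which makes glutamine from glutamate, was lower with -0.86 (edgeR adjusted p = 0.0414), as were GLUD1 with -0.69 and GPT2 with -0.63, which exchange glutamate with 2-oxoglutarate.

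Genes of serine and glycine synthesis and of the response to amino acid shortage, which bear on the cargo of SLC1A4 and SLC1A5, moved in both directions. Of 20 genes 19 passed the filter, of which 5 were higher and 6 were lower, beside the 22.7% and 22.0% of all tested genes. These counts are read as no result about the list. The amino acid transporter genes SLC38A1 and SLC7A5 were higher, with log2 fold changes of 2.66 and 1.95, and so was CTH, which makes cysteine from cystathionine, with 1.96. VLDLR, SESN2 and TRIB3 were lower, with -3.51, -1.54 and -1.38. The serine synthesis genes PHGDH, PSAT1 and PSPH did not pass the test, with log2 fold changes of -0.13, -0.21 and 0.32 and edgeR adjusted p-values of 0.205, 0.298 and 0.153.

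**Figure D3:**
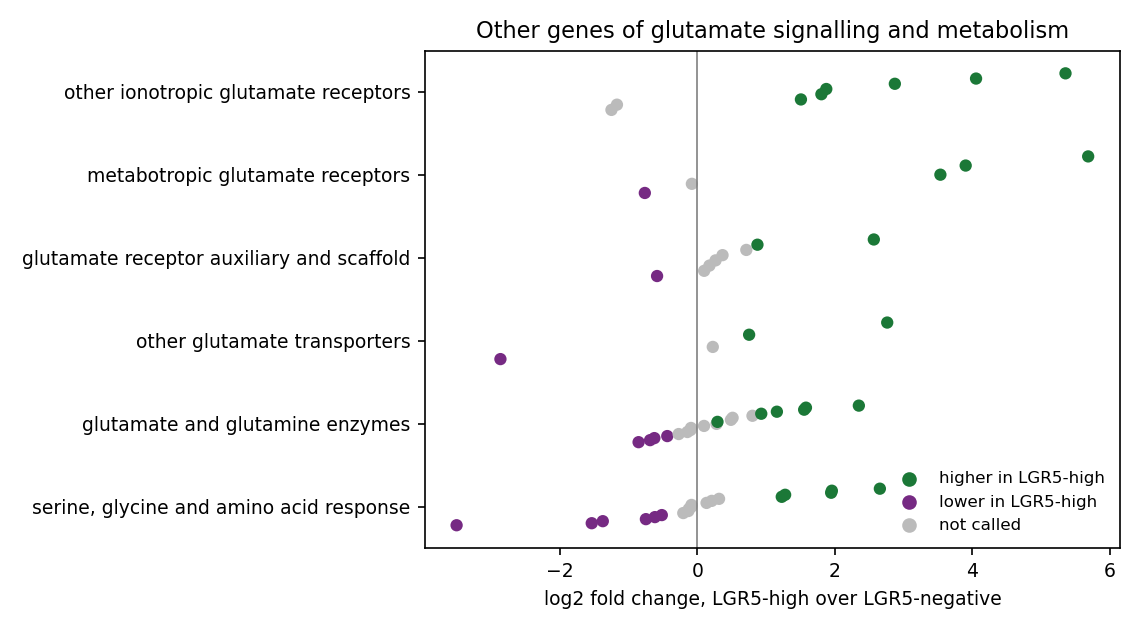
Log2 fold change of LGR5-high over LGR5-negative for every listed gene that passed the filter, by list, in green where called higher, purple where called lower and grey where not called at an adjusted p-value of 0.05. In both receptor lists the called genes lie mostly to the right, but 3 ionotropic and 2 metabotropic genes passed the filter through LGR5-high alone. Those genes had to differ in order to pass, so the lean is only a description. The enzyme and amino acid lists hold called genes on both sides.

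Glutamate receptors and transporters are also known from neurons, glia, melanocytes and Merkel cells, and lists of markers were read beside them. The calls in these lists stand beside the 22.7% higher and 22.0% lower among all tested genes. The melanocyte list was lower in LGR5-high, with 7 of 10 genes called lower and 3 not called, and its summed level was 65.0 to 65.9 CPM for LGR5-high against 89.3 to 272 CPM for LGR5-negative. The Schwann cell and glia list summed to 12.7 to 17.4 CPM for LGR5-high against 16.8 to 23.9 CPM for LGR5-negative. Of its 10 genes 5 passed the filter, of which 1 was higher and 2 were lower. CDH19 and SCN7A were at 0 counts in every library. S100B was higher with a log2 fold change of 2.81, and MBP and SOX10 were lower with -2.24 and -2.69. The neuron list summed to 2.18 to 4.54 CPM for LGR5-high against 0.947 to 1.46 CPM for LGR5-negative, and 6 of its 8 genes did not pass the filter. The other 2, SYT1 and NEFL, were not called. NEFL alone held 2.63 CPM in the LGR5-high library of pig 95R but 0.0872 CPM in that of pig 88R.

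Of the 7 Merkel cell genes 2 passed the filter, CHGA and PIEZO2, and both were higher in LGR5-high. The list summed to 16.2 to 19.9 CPM against 0.947 to 1.82 CPM. The defining genes ATOH1, SOX2 and KRT20 had at most 21 counts in a library and did not pass the filter. ATOH1 had 3 and 21 counts in LGR5-high against 0 and 2, and SOX2 had 3 and 5 against 0 and 0. KRT20 had 10 and 8 against 8 and 12. Of 6 smooth muscle and pericyte genes 5 were higher, at a summed 293 to 406 CPM against 15.2 to 15.9 CPM. TAGLN made up 333 ± 79.2 CPM (SD, n = 2) of this in LGR5-high. MYH11, ACTA2, CNN1 and RGS5 were also called higher, with log2 fold changes of 0.91, 2.08, 3.70 and 1.69. DES had at most 2 counts and did not pass the filter. Of 8 immune genes 7 passed the filter, of which 5 were lower and 1 was higher, and of 5 endothelial genes 4 were lower. Both lists were at lower summed levels in LGR5-high. The immune list held 16.5 to 17.2 CPM against 97.2 to 143 CPM. For the endothelial list the levels were 6.11 to 7.47 CPM against 20.8 to 20.9 CPM. Of 9 dermal genes 7 passed the filter, of which 5 were lower and 1 was higher, and the summed levels of this list overlapped. As in the glutamate lists, some markers passed the filter through 1 population alone and had to differ in order to pass, which held for CHGA through LGR5-high and, through LGR5-negative, for 2 immune, 2 endothelial, 2 dermal and 1 melanocyte gene, so these counts too are a description. Among other called markers, PIEZO2 and CNN1 reached the level of the filter in only 1 LGR5-negative library. MLANA of the melanocyte list and TYROBP of the immune list did so in only 1 LGR5-high library. Of 5 basal keratinocyte genes, 3 were lower. The part of any other cell type in the levels of GRIK1, GRIK3, SLC1A2 and SLC1A4 was not tested.

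**Figure D4:**
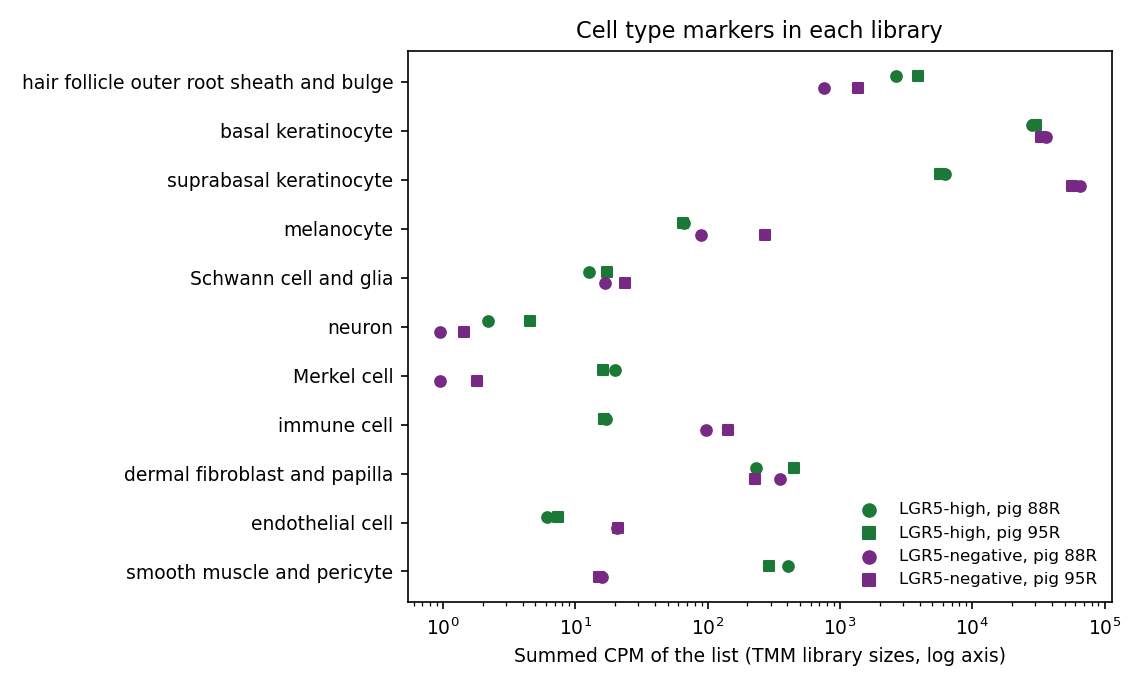
Summed CPM of each list of cell type markers in each library, on a log axis, with LGR5-high in green and LGR5-negative in purple, circles for pig 88R and squares for pig 95R. The melanocyte, immune and endothelial lists are lower, and the outer root sheath, Merkel cell, neuron and smooth muscle lists higher, in both LGR5-high libraries than in both LGR5-negative libraries. No gene of the neuron list was called.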

How the data were processed

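The authors deposited raw counts of reads per gene symbol for 4 libraries, with no normalization. The submitters' processing notes name Trimmomatic 0.36, STAR 2.5.2b and featureCounts of Subread 1.5.2. The genome build, annotation, strand setting and treatment of reads that map to several places are not given in the sources used here. RefSeq names and neighbours are from Sscrofa11.1, where all 10 genes had 1 entry, and no coordinates are given. Protein and promoter sequences were not used here.

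The populations were tested with edgeR 4.0.16 under R 4.3.3. An entry without a name, 0.36% to 0.626% of a library, was left out. Genes were kept by filterByExpr (minimum count 10, minimum total 15), scaled by TMM and tested by the 2-sided quasi-likelihood test of the population, with Benjamini-Hochberg adjustment over 15980 genes and a threshold of 0.05. Standard errors follow from the fold change and the F statistic. Fitted fold changes used a prior count of 0.125, those within a pig a prior count of 2. The counting intervals and the floor of 3 counts cover counting error only, and they take reads as independent molecules, which reads copied by PCR are not. The intervals of the fitted fold changes were built from the standard errors instead.

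The libraries of a pig are paired by the animal number in the labels, and their deviations from the population means correlated at 0.370 across genes. The alternatives were other scalings and filters, the replicate block, DESeq2 1.42.0, limma-voom (limma 3.58.1), a linear model with equal variances fitted to each gene alone on log2(CPM + 1), after the study's methods, a prior count of 2, and each library left out in turn. The fits were tested on simulated data. Plots used matplotlib 3.10.9.

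The members and lists were chosen with earlier results of these data known. The genes named from a list are the 3 called genes with the largest increase and the 3 with the largest decrease, and partners of the members (NETO1, NETO2, SLC7A11 and GLUL), with others given beside a count. Some listed genes are not reported here. The nearest genes are the 3 with the smallest distance over the libraries.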

Additional observations from a re-analysis of the deposited data

How the results depend on the processing

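GRIK1 and SLC1A2 were higher and SLC1A1 was lower, at an adjusted p-value under 0.05, under 13, 14 and 13 of the 14 alternatives. The linear model fitted to each gene alone called 1 of the 7 tested genes that entered by name higher and 0 lower, where 2 and 2 had an unadjusted p-value under 0.05, and the listed genes gave 4 higher and 1 lower. The DESeq2 size factors, limma-voom and the replicate block each called 2 genes lower, GRIK5 being the added one (adjusted p from 0.0218 to 0.190 over the 14 alternatives, the lowest from edgeR with the block), and with the replicate block, where the pairing is by pig, no other call of the 7 genes changed. The listed genes, 24 higher and 13 lower as reported, gave 31 and 7 with library size only, and leaving out a library gave 17 to 25 higher and 8 to 12 lower. The direction of genes that were not called turned for SLC1A5 with library size only (0.079), for GRIK4 when libraries were left out (-0.069 without the LGR5-high library of pig 95R, to 0.43) and for SLC1A3 likewise (-0.12 to 0.14, and -0.097 without the LGR5-high library of pig 88R). The fitted log2 fold change of GRIK3 lay between 6.37 with the linear model of each gene, where 1 is added to each CPM, and 9.77, was 8.67 to 9.77 with a library left out and 8.69 with a prior count of 2. That of SLC1A4 lay between 6.60 and 7.33. Over all tested genes, 3632 higher and 3508 lower genes became 5473 and 2328 with library size only and 544 and 502 with the linear model of each gene, and were 2340 and 2437 without the LGR5-high library of pig 88R and 2279 and 2139 without that of pig 95R. Except where stated, the cause was not tested. With 2 pigs, and with 10 or fewer counts in a population as for GRIK3, the size of a fold change is loosely fixed. GRIK3 could not be tested where 10 counts were required in every library.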
